A study of Rattus norvegicus with 18 samples.

Results

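Subcutaneous abdominal fat was set against hypothalamus in rats labelled Pair-Fed, which the series design describes as animals given as much food as the operated rats ate. The comparison took the 3 fat arrays and the 3 hypothalamus arrays of that group, chosen by their titles, which is 6 of the 18 arrays in the series. The other 12 arrays came from the same tissues of rats that had a Roux-en-Y gastric bypass (RYGB), an operation that reroutes food past most of the stomach and the upper intestine. They are labelled RYGB-Success where the animals were losing weight and RYGB-Fail where they were gaining it, with 3 arrays in each tissue, and serve here to read the tissue difference again, in tests of its change between groups, in an alternative fit over all 18 arrays and for some values in the closing observations. The series design calls the 3 samples of a tissue and group biological replicates. Whether samples were pooled, whether fat and hypothalamus of equal number came from 1 rat, whether the Pair-Fed rats had a sham operation, and the strain, sex and age of the rats are not given in the sources used here.

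White fat stores triglyceride in large adipocytes, takes up fatty acids from circulating lipoproteins, releases them again when fuel is needed, and secretes hormones that report on the size of the store. Its tissue also holds fibroblasts and progenitor cells, vessels and resident immune cells embedded in collagen. The hypothalamus is the brain region that reads those hormones and sets feeding, thirst, temperature and pituitary output, largely through small groups of neurons that each make a particular neuropeptide, set among astrocytes, oligodendrocytes and microglia.

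Each value is the deposited MAS5 signal of a probe set, a linear fluorescence intensity that the authors had scaled to a common trimmed mean on every array. Of 31042 probe sets that are not array controls, the 18625 with the highest mean log2 signal over the 6 arrays were tested, which kept those with a mean signal of at least 68.5. This value is called the floor below. It is where testing stopped and not a measured limit of detection. Where the mean of the lower tissue fell under it, a fold is given as "at least", with every array held at no less than the floor. Differences are fat minus hypothalamus on the log2 scale with their standard error (SE), and a call means an adjusted p under 0.05 by limma with Benjamini-Hochberg adjustment over all 18625 probe sets. One probe set, the brightest over the 6 arrays, stands for a gene, except in the ranking of the 12 largest differences, which took the probe set of a gene with the largest difference.

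The median signal was 126, 147 and 134 on the fat arrays and 91.5, 98.8 and 94.9 on the hypothalamus arrays. The 100 brightest probe sets held 10.9% to 12.3% of all signal in fat and 7.52% to 7.93% in hypothalamus. Arrays of 1 tissue correlated at 0.854 to 0.864 in fat and 0.893 to 0.901 in hypothalamus, and arrays of different tissues at 0.663 to 0.698. The ratio of the 3′ to the 5′ beta-actin control probe sets, a measure of RNA integrity and of how far amplification reached, was 15.4, 17.9 and 20.6 in fat and 10.1, 179 and 30.5 in hypothalamus. The part of this spread in the results was not tested.

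Called differences made up 10129 of the 18625 probe sets (54.4%), with 5740 higher in fat (30.8%) and 4389 lower in fat (23.6%). In 11826 (63.5%) the fat and hypothalamus arrays did not overlap. Counts of calls in the gene lists below are to be read against the shares of 30.8% higher and 23.6% lower. A gene near or under the floor in 1 tissue was tested only if it was bright in the other, so the counts and medians given for lists describe the members that passed and lean to large differences where many did not. Because so much differed, a second rule asked also for at least 4-fold with values held at the floor, and it was met by 1726 probe sets higher in fat (9.27%) and 1792 lower in fat (9.62%). In bulk tissue, fewer cells of a type and less RNA per cell cannot be told apart, here and throughout.

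The balance between higher and lower calls depended on how arrays were scaled. With the deposited scaling 56.7% of calls were higher in fat, with each array centred on its median 35.7% were, and with quantile normalization 51.5% were. The median over all tested probe sets was 0.21 with the deposited values, -0.30 after median centring and 0.06 after quantile normalization. Differences of several log2 units are little touched by this, while differences under about 1 log2 unit can lose their call or their sign. Some larger ones, such as those of Dlg2 and Pdk4 given below, also lost their call after median centring. For some gene lists with small differences the median-centred counts are therefore given as well.

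Genes of fat storage, fat secretion and connective tissue led the genes higher in fat. The 12 largest, ranked with values held at the floor, were Dpt, Plin1, Fabp4, Aoc3, Ccl6, Col3a1, Cfd, Col1a1, Rbp7, Adipoq, Postn and Car3. Plin1 encodes perilipin, the coat of the adipocyte lipid droplet, and its signal was 16704, 24613 and 21241 in fat, against 112, 8.66 and 82.6 in hypothalamus. Fabp4, the adipocyte fatty acid carrier, had 17142, 39622 and 20059 in fat, against 146, 20.1 and 127 in hypothalamus. Every fat array stood more than 2 orders of magnitude above the brightest hypothalamus array for both genes. Dermatopontin, the small matrix protein encoded by Dpt, had 19646, 20145 and 15173 in fat, against 68.5, 38.1 and 36.3 in hypothalamus, at least 265-fold higher (difference 8.64 ± 0.28, adjusted p = 5.41e-08). Its brighter probe set gave 23156, 26183 and 22482 in fat, against 101, 33.3 and 139.8 in hypothalamus. The collagen gene Col3a1 reached 28525, 30527 and 23114 in fat, against 172, 92.6 and 184 in hypothalamus, and the carbonic anhydrase Car3 11870.3, 20060.2 and 13770.2 in fat, against 89.1, 148 and 53.4 in hypothalamus. The brighter probe set of Car3, which would rank lower, gave 26261, 37842 and 30434 in fat, against 697, 748 and 632 in hypothalamus.

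Genes of neurons led the other direction. The 12 largest by the same ranking were Nsg2, Anks1b, Stmn3, Snap91, Mobp, Kif5a, Ttyh1, Pcp4, Nptx1, Gad1, Uchl1 and Cend1. In this ranking Dpt, Col1a1, Car3, Ttyh1 and Anks1b stand with a probe set other than their brightest. Nsg2, a membrane protein of neuronal endosomes, had 16.7, 33.7 and 52.6 in fat, against 14213, 13066 and 11058 in hypothalamus, at least 186-fold lower in fat (difference -8.68 ± 0.38, adjusted p = 1.50e-07). Snap91, an adaptor of synaptic vesicle recycling, had 10.5, 8.08 and 10.6 in fat, against 11174, 11345 and 10747 in hypothalamus. All 3 fat values of both genes lay under the floor. Kif5a, a motor of axonal transport, had 6.62, 45.4 and 28.5 in fat, against 8976, 11486 and 12767 in hypothalamus. Mobp, a protein of compact myelin made by oligodendrocytes, had 2.00, 41.3 and 3.06 in fat, against 10624, 11456 and 11035 in hypothalamus, so the list was not purely neuronal. Nptx1, a secreted protein of excitatory synapses, had 62.1, 73.9 and 27.2 in fat, against 13114, 6039 and 10984 in hypothalamus, where array 2 was lowest.

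**Figure D1:**
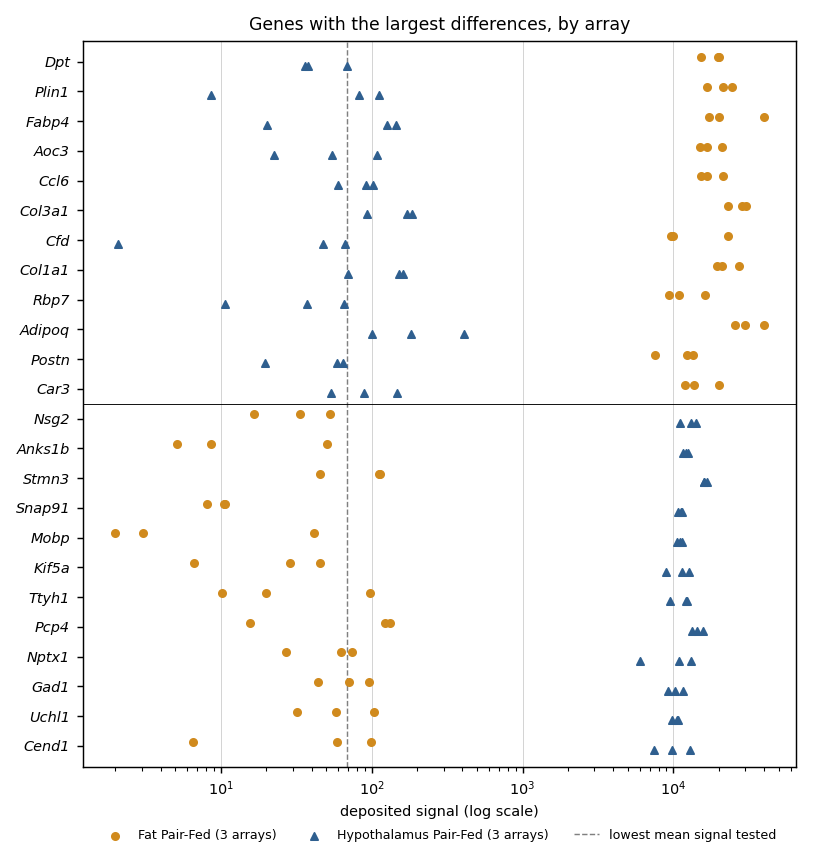
Deposited signal (log axis) on each of the 3 Fat Pair-Fed arrays (circles) and 3 Hypothalamus Pair-Fed arrays (triangles) for the 12 genes furthest above and the 12 furthest below, fat against hypothalamus. The dashed line is the floor of 68.5; in every row the tissues are separated by more than an order of magnitude.

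The stretches before the start sites of the 2 genes at the head of each direction are shown to let a reader see how unlike they are in base composition. They are the 250 bases upstream of the gene start on the gene's own strand, from RefSeq on GRCr8. Dpt lies at chr13:79656091-79656340 on the plus strand, Plin1 at chr1:143086149-143086398 on the minus strand, Nsg2 at chr10:16165916-16166165 on the minus strand and Anks1b at chr7:26200399-26200648 on the plus strand. Capitals mark the TATA box letters TATAAA, the CCAAT box and the GC box letters GGGCGG, on either strand.
Dpt: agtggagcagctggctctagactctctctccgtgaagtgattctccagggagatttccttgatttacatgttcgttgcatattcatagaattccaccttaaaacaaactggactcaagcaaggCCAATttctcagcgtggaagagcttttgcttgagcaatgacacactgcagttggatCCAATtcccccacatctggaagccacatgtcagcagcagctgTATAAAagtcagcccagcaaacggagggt
Plin1: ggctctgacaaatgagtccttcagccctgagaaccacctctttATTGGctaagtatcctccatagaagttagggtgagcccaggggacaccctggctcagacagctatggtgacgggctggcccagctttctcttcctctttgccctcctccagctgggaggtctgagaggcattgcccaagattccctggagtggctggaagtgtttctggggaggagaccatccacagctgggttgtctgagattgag
Nsg2: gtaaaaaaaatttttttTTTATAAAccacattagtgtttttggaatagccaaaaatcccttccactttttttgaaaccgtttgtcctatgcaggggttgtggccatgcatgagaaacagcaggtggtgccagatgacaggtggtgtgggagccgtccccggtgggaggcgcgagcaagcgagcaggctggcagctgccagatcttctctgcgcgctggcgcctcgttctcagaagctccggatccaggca
Anks1b: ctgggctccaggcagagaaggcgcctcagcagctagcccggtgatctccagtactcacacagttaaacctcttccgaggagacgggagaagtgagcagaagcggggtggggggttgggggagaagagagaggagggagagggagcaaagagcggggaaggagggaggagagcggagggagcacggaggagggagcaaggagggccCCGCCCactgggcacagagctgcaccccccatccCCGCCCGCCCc
In Dpt a TATAAA on the gene's strand begins 29 bases before the start, and CCAAT begins 127 and 71 bases before it. Plin1 has only CCAAT on the opposite strand, 207 bases before the start. Nsg2 has an overlapping pair of TATAAA, 1 on each strand, 231 and 233 bases before the start. Anks1b has GGGCGG on the opposite strand, beginning 45, 11 and 7 bases before the start, where the last pair overlap. The 250 bases hold 47.2% G and C in Dpt, 55.6% in Plin1, 51.6% in Nsg2 and 66.8% in Anks1b.

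Over the promoter windows of RefSeq, which run from 250 bases before to 50 after a start, genes at least 4-fold higher in fat had fewer CpG dinucleotides, the sites of DNA methylation. The median was 12 in the 774 of 1007 such genes with a window, 20 in the 764 of 974 genes at least 4-fold lower in fat, and 23 in the 2023 of 2378 genes whose interval lay within 2-fold. It was 21 over all 8607 tested genes with a window and 7 over all 27457 windows in the table. TATAAA on either strand was in 11% of the windows of genes higher in fat, 7.33% of those lower in fat, 5.44% of those alike, 6.61% of all tested genes and 14.3% of all windows. On the gene's strand 40 to 20 bases before the start, it was in 2.97% of windows of genes higher in fat, 0.785% of those lower in fat and 1.01% of all tested genes. CCAAT on either strand was in 30.9% of windows of genes higher in fat, 35.6% of those lower in fat, 41.7% of those alike, 37.9% of all tested genes and 37.7% of all windows. GGGCGG on either strand was in 55.6% of windows of genes higher in fat, 61.4% of those lower in fat, 67.9% of those alike, 63.3% of all tested genes and 34.9% of all windows. These are descriptions of letters in a window with no test.

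The tissue labels were checked against cell type markers. In fat, adipocyte genes were among the brightest on the array, while the neuronal gene Snap25 had 119.6, 237 and 136 in fat, against 18630.2, 19907 and 19682 in hypothalamus. In hypothalamus, Nkx2-1, a transcription factor that marks the ventral hypothalamus, had 12.4, 68.7 and 27.3 in fat, against 289, 373 and 283 in hypothalamus, and Arnt2, a partner of Sim1 in neuroendocrine neurons, 89.8, 79.2 and 86.0 in fat, against 1234, 1089 and 1427 in hypothalamus. Of 14 hypothalamic transcription factors on the array 3 were tested, and the third, Sim1, had 57.7, 45.0 and 96.7 in fat, against 80.9, 84.8 and 92.5 in hypothalamus, and was not called. Otp, Nr5a1, Isl1, Rax and Six3, which mark particular hypothalamic nuclei, were under the floor on all 3 hypothalamus arrays, so these arrays give no reading of them. Of 9 pituitary genes, growth hormone, prolactin and the glycoprotein hormone subunits among them, 0 passed the filter, and their summed signal was 262 to 597 in fat and 221 to 301 in hypothalamus.

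The hypothalamus arrays also carried markers of neighbouring brain structures. Ttr, made by the choroid plexus, had 147, 69.7 and 44.6 in fat, against 10858, 13420.5 and 8234 in hypothalamus. Ttr does not stand for all choroid plexus and ependyma genes, of which 13 were on the array and 9 were tested. Of those, 4 were called lower in fat and 2 higher, all by at least 4-fold, with a median of -0.67. Of all tested probe sets 23.6% were called lower and 30.8% higher. The dopamine receptor Drd1 and the signalling protein Ppp1r1b, both typical of striatal neurons, had 1577, 3229.8 and 1810.2 and 1461, 3689.5 and 2837 in hypothalamus, where fat had 45.0, 122.9 and 14.9 and 16.02, 79.2 and 6.68. Both were lowest on hypothalamus array 1. Slc17a7, the vesicular glutamate transporter of cortex, had 7.17, 65.7 and 3.11 in fat, against 1107, 317 and 1197 in hypothalamus, and Neurod6, a cortical transcription factor, 61.1, 90.5 and 56.0 in fat, against 387, 142 and 486 in hypothalamus. Those were lowest on array 2. The cortical factors Tbr1 and Emx1 stayed under the floor on all 3 hypothalamus arrays. Over the 16 markers of cortex, striatum and thalamus on the array, 14 were above the floor on all hypothalamus arrays, and their summed signal was 11039 to 13442 in fat and 39782 to 44220.0 in hypothalamus. Several of these genes are also active in hypothalamic neurons, and the part of neighbouring tissue in the hypothalamus values was not tested.

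**Figure D2:**
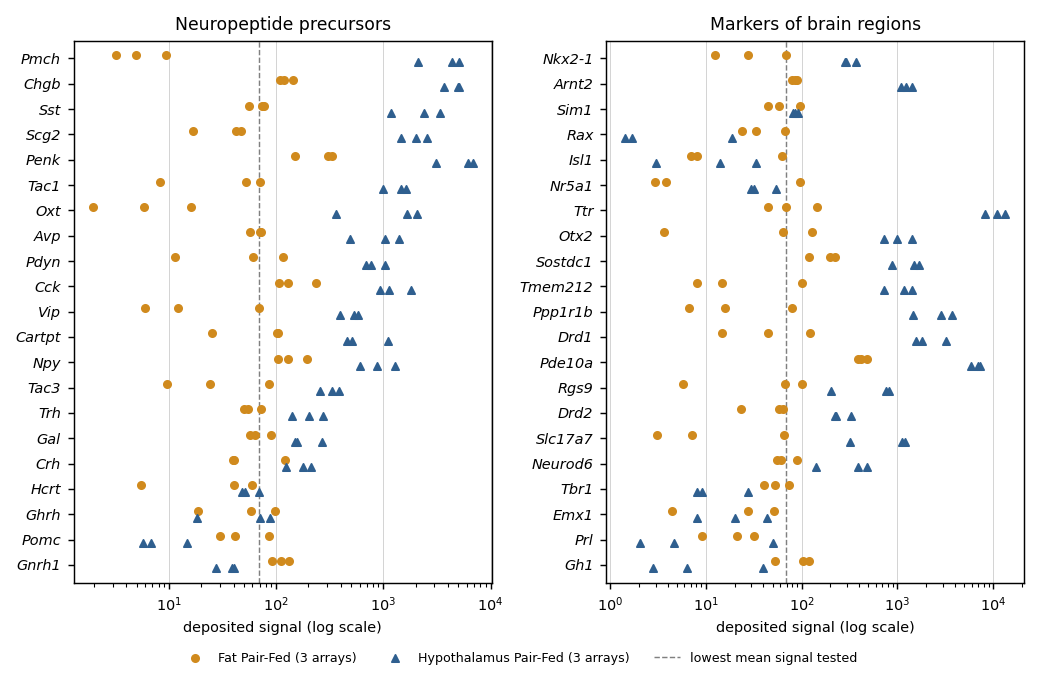
Deposited signal (log axes) of 21 neuropeptide and granule protein precursors (left) and 21 brain region or pituitary markers (right), with Fat Pair-Fed arrays as circles and Hypothalamus Pair-Fed arrays as triangles, 3 each. Pmch, Oxt and Ttr stand far to the right of fat in hypothalamus, whereas the hypothalamus arrays of Pomc, Gnrh1, Rax, Isl1, Prl and Gh1 lie left of the dashed floor of 68.5.

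The hormones of fat tissue were higher in fat. Of 12 genes of adipocyte hormones and secreted factors on the array, 10 were tested, 8 were called higher in fat and 1 lower, with a median of 4.82. Adipoq, the insulin-sensitising hormone adiponectin, had 25647, 39668 and 29888 in fat, against 409.7, 101 and 182 in hypothalamus (difference 7.32 ± 0.42, adjusted p = 5.57e-07). Cfd, the complement protease also known as adipsin, had 9671, 23026 and 9897 in fat, against 66.3, 2.07 and 47.6 in hypothalamus, at least 189.9-fold higher. Igf1, a growth factor, had 13348, 23179 and 14842 in fat, against 456, 309 and 261 in hypothalamus, and the retinol carrier Rbp4 had 8198, 7673 and 7675 in fat, against 280.0, 409.7 and 474 in hypothalamus. None of these groups of arrays overlapped. Agt, the angiotensin precursor, which astrocytes also make, was called lower in fat, at 752, 1258 and 798 in fat, against 1659, 2339 and 1626 in hypothalamus. The probe set of leptin, Lep, gave 89.4, 60.3 and 35.7 in fat, against 13.8, 4.34 and 30.2 in hypothalamus, and did not pass the filter.

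All 19 lipid droplet and lipolysis genes on the array were tested and called higher in fat, 18 of them by at least 4-fold, against 30.8% and 9.27% of all tested probe sets. The median difference was 4.59, against 0.21 for all tested probe sets. They cover each step of storage and release. Lpl, the lipase that frees fatty acids from lipoproteins, had 32043, 43672 and 34271 in fat, against 2355, 1450.2 and 1370.4 in hypothalamus, and Cd36, a fatty acid transporter, 1396, 3642 and 1853 in fat, against 31.5, 50.9 and 32.8 in hypothalamus. Among the droplet coat proteins, Cidec had 3107, 5251 and 3341 in fat, against 38.9, 21.1 and 4.57 in hypothalamus. The triglyceride lipase Pnpla2 had 1360.3, 3082 and 1711 in fat, against 93.0, 102 and 122.7 in hypothalamus, and the hormone-sensitive lipase Lipe 418, 738 and 533 in fat, against 3.9, 42.8 and 5.75 in hypothalamus. For 14 of the 19 genes the highest fat signal was on array 2. The smallest difference was that of Fitm2, a droplet-forming protein, at 1.12 ± 0.29 (adjusted p = 0.00826).

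Fatty acid and triglyceride synthesis did not move as a block. Of 21 genes on the array 17 were tested, of which 9 were called higher in fat and 2 lower, with a median of 1.14. After median centring 8 were called higher and 5 lower. Pck1, which supplies glycerol phosphate from pyruvate, had 5321, 9967 and 7449.7 in fat, against 56.4, 1.68 and 49.2 in hypothalamus, at least 107-fold higher. Agpat2, an acyltransferase of triglyceride assembly, had 1028, 1196 and 910.1 in fat, against 37.5, 39.2 and 26.4 in hypothalamus. Its relatives Agpat3, Agpat4 and Agpat5, which were not on the list, were called lower in fat, with differences of -1.001, -1.09 and -0.59. Agpat1, a further relative, gave no call (difference -0.25 ± 0.33, adjusted p = 0.536). Dgat2, which catalyses the last step, had 4055, 2101 and 3929 in fat, against 388, 436 and 353 in hypothalamus. Fasn, Acly, Acaca and Me1, of fatty acid synthesis and its supply, gave no call. Fasn, the synthase itself, had 4276, 2638 and 5191 in fat, against 2681, 2809.9 and 3666 in hypothalamus, a difference of 0.36 ± 0.25 (adjusted p = 0.244) that turned to -0.15 after median centring. Acly, which makes cytosolic acetyl-CoA, had 8926, 8498 and 8502 in fat, against 8824, 10003 and 9669 in hypothalamus, with a 95% interval of -0.40 to 0.13. The carboxylase Acaca gave 524, 487 and 1219.8 in fat, against 509, 679.7 and 764 in hypothalamus (difference 0.08 ± 0.36, adjusted p = 0.866), and the NADPH-producing enzyme Me1 2643, 2223 and 3167 in fat, against 2651, 3099 and 2934 in hypothalamus. Elovl6, which lengthens saturated chains, was lower in fat, at 268, 223 and 173 in fat, against 1333, 795 and 866 in hypothalamus.

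Among transcription factors of the adipocyte programme, 10 of 13 on the array were tested, 4 were called higher in fat and 2 lower, against 30.8% and 23.6% of all tested probe sets, so the counts are no result about the group. Pparg, the master regulator of adipocyte formation, had 1219, 1914 and 1247 in fat, against 31.3, 2.72 and 33.1 in hypothalamus, at least 20.8-fold higher (difference 6.66 ± 0.83, adjusted p = 9.11e-05). Cebpa, its partner, had 15971, 18826 and 22649 in fat, against 1609, 1889.8 and 2549 in hypothalamus, and Ebf1 7646, 8883 and 8332 in fat, against 637, 647 and 552 in hypothalamus. Nr1h3, the oxysterol receptor LXR alpha, had 481, 1212 and 1302 in fat, against 47.7, 24.7 and 25.3 in hypothalamus. The 2 lower in fat are known from brown fat. Ppargc1a, a coactivator of mitochondrial genes, had 57.7, 72.6 and 103 in fat, against 1216, 1230.2 and 1528 in hypothalamus, and Prdm16 had 882, 706 and 950.0 in fat, against 1771, 1353 and 1637 in hypothalamus, a call that was lost with all 18 arrays in the fit. Ucp1, the uncoupling protein of brown fat, stayed under the filter, with 25.6, 48.4 and 100.4 in fat, against 26.9, 17.8 and 33.4 in hypothalamus. Cidea, a droplet protein found in brown and white fat of rodents, was 9.63-fold higher, at 1341, 1187 and 1498 in fat, against 134, 131 and 152 in hypothalamus.

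Matrix genes, which build the collagen bed of the tissue, were higher in fat. Of 33 on the array 32 were tested and 30 were called higher in fat, 29 by at least 4-fold and 0 lower, with a median of 4.91. Dcn, a proteoglycan that binds collagen fibrils, had 17334, 13984 and 7846 in fat, against 191, 73.6 and 96.5 in hypothalamus. The basement membrane collagen Col15a1 had 19051, 19912 and 17462 in fat, against 218, 283 and 179.5 in hypothalamus, and Mmp2, a protease that degrades such membranes, 8493, 6569 and 6094 in fat, against 97.3, 153 and 107 in hypothalamus. Sparc, a collagen-binding protein, was bright in both tissues, at 41917, 41819 and 37859.8 in fat, against 13822, 10918 and 12527 in hypothalamus. Fmod and Fbln1 did not pass, with differences of 0.60 ± 0.28 and -0.44 ± 0.72. Of 14 fibroblast and progenitor markers 13 were tested, 12 were called higher in fat and 1 lower. Above the floor on all 3 arrays were 13 of the 14 in fat and 3 in hypothalamus, so the filter favoured members bright in fat. The median was 4.78 over those tested and 4.02 over all 14 with values held at the floor. Serpinf1 had 13560.5, 6739 and 5271 in fat, against 92.0, 71.6 and 55.3 in hypothalamus, and Pi16, a marker of progenitors, 830.1, 581 and 3095 in fat, against 46.8, 61.0 and 76.9 in hypothalamus. The exception was Thy1, a surface protein of fibroblasts and of neurons, with 955, 654 and 1061 in fat, against 3722, 3801 and 4832 in hypothalamus.

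Pdgfra was high in both tissues. This receptor marks fibroblastic progenitors in fat and oligodendrocyte precursors in brain, and it had 20943, 19038 and 17866 in fat, against 8861, 10222 and 7937 in hypothalamus, a difference of 1.10 ± 0.13 (adjusted p = 7.07e-05).

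Most tested vessel genes were higher in fat, while some genes of the blood-brain barrier were lower. Of 18 on the array 17 were tested, 11 were called higher in fat and 4 lower. Of all tested probe sets 30.8% were called higher and 23.6% lower, so the number lower is near that share and is no result about the group. Pecam1, an adhesion molecule of all endothelium, had 9370.0, 14407 and 17446 in fat, against 720.1, 1265 and 1237 in hypothalamus, and the angiopoietin receptor Tek 9494, 7651 and 9828 in fat, against 1293, 1382 and 1318 in hypothalamus. Emcn, the mucin endomucin, had 3066, 3533 and 4302 in fat, against 179, 248 and 148 in hypothalamus. The 4 lower in fat are transporters of the brain barrier. Slco1c1, which carries thyroxine, had 8.61, 16.9 and 11.2 in fat, against 1015, 1219 and 927 in hypothalamus, at least 15.3-fold lower in fat. The drug efflux pump Abcb1a had 74.3, 238 and 152 in fat, against 1414, 1722 and 1432 in hypothalamus, and Slco1a4 86.0, 154 and 116 in fat, against 1058, 901 and 803 in hypothalamus. The glucose transporter Slc2a1 had 1158, 1041 and 1473 in fat, against 8481, 11480.2 and 6956 in hypothalamus. Cldn5, a tight junction protein, gave no call, with 701, 787 and 1578 in fat, against 838, 1149 and 938 in hypothalamus. Of 12 smooth muscle and pericyte genes 9 were above the floor on all fat arrays and 4 on all hypothalamus arrays, and the 8 tested were called higher in fat. The smooth muscle myosin gene Myh11 had 1429, 1181 and 1166 in fat, against 125, 111 and 47.8 in hypothalamus.

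Immune cell genes were mostly higher in fat. Of 23 macrophage and microglia markers 21 were tested, 18 were called higher in fat and 1 lower, with a median of 2.94. Cd163 and Mrc1, scavenger receptors of resident tissue macrophages, had 9060.2, 10985 and 3962 and 20071, 17632 and 10646 in fat, against 43.8, 108 and 7.11 and 321, 565 and 249.7 in hypothalamus. The chemokine Ccl6 had 21404, 15179.5 and 16635 in fat, against 60.2, 92.2 and 102 in hypothalamus. Csf1r, the growth factor receptor of macrophages and microglia, was 1943, 1225 and 1215 in fat, against 337, 435 and 352 in hypothalamus, and the protease Ctss, at 11960.0, 8724 and 6535 in fat, against 7509.5, 8666 and 7885 in hypothalamus, gave no call (difference 0.14 ± 0.20, adjusted p = 0.59). Of the microglial pair, Tmem119 was called lower in fat, with 89.8, 63.5 and 101 in fat, against 155, 323 and 203 in hypothalamus. That call was lost without hypothalamus array 2 (difference -1.09) and with all 18 arrays in the fit. P2ry12 had 645, 209 and 213 in fat, against 481, 634 and 419 in hypothalamus and was not called (difference -0.72 ± 0.43). For 19 of the 23 markers the highest fat signal was on array 1, and their summed signal ran 80864 to 143507 in fat and 15432 to 17173 in hypothalamus.

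Antigen presentation showed the same direction, with 13 of 15 genes tested, 12 called higher in fat and 1 lower. The class II gene RT1-Db1 had 7280.2, 5713 and 4793 in fat, against 76.5, 38.3 and 45.7 in hypothalamus, and B2m, the light chain of class I, 33788, 45189 and 33260.5 in fat, against 9542, 9324 and 8185 in hypothalamus. C3, the central complement component, was called lower at an adjusted p of 0.0451, with 143, 139 and 105 in fat, against 289, 202 and 216 in hypothalamus. The C3 call was lost when any 1 of the 6 arrays was left out. The mast cell proteases stood high on all fat arrays. Cpa3, a carboxypeptidase, had 5514, 2983 and 1374 in fat, against 28.1, 27.6 and 11.8 in hypothalamus, and the chymase Cma1 2814, 1456 and 1054 in fat, against 30.6, 5.53 and 8.34 in hypothalamus. Of 10 mast cell markers 6 were above the floor on all fat arrays and 0 on all hypothalamus arrays, so that the 3 tested passed through fat alone. The summed signal of the 10 ran 4993 to 12705 in fat and 112 to 251 in hypothalamus. Of 13 lymphocyte markers 9 were above the floor on all fat arrays and 1 on all hypothalamus arrays. The T cell coreceptor Cd8a had 785, 339.6 and 811 in fat, against 48.0, 8.48 and 25.5 in hypothalamus. Among 7 blood cell markers, the globin Hbb was bright in both tissues, at 8121, 6943 and 4912 in fat, against 12362, 3022 and 5176 in hypothalamus, and gave no call (difference 0.17 ± 0.42).

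Hox genes, which record the position of a cell along the body axis and are not used in the forebrain, were detected in fat. Of 18 on the array, 11 were above the floor on all fat arrays and 0 on all hypothalamus arrays. The 7 that were tested passed the filter through fat alone, so their number called is no result. Hoxd8 had 9789, 3866 and 6537 in fat, against 25.3, 33.1 and 17.2 in hypothalamus, and Hoxd9 had 2321, 1419 and 2792 in fat, against 2.03, 2.51 and 9.82 in hypothalamus. Hoxa9, with 383, 3423 and 3640.3 in fat, against 39.0, 5.64 and 26.1 in hypothalamus, and Hoxa10, with 507, 2254 and 3020.0 in fat, against 13.3, 19.4 and 28.6 in hypothalamus, were several-fold lower on fat array 1 than on the other two. Hoxd8 was highest on that same array.

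Markers of tissue lying next to subcutaneous fat were weak or uneven. Of 21 skeletal muscle markers 9 were tested, 4 called higher in fat and 4 lower, against 30.8% and 23.6% of all tested probe sets. Tnnt3, a fast-muscle troponin, had 243, 390.2 and 879 in fat, against 12.9, 54.9 and 27.0 in hypothalamus. The muscle genes Ckm, Mb and Atp2a1 were under the floor on all 3 fat arrays. Those lower in fat included Pvalb, a calcium buffer of fast muscle and of inhibitory neurons, at 23.0, 115 and 5.89 in fat, against 1513, 1357 and 2057 in hypothalamus. Myh1 was very bright in both, at 11944, 13084 and 14074 in fat, against 17900.3, 20608 and 19872 in hypothalamus, and its 5 probe sets were all higher in hypothalamus, by 0.58 to 1.86 on the log2 scale, with the call of the brightest lost when all 18 arrays were in the fit. What transcript these probe sets report was not tested. Of 18 skin and mammary epithelium markers 6 were tested. The milk casein Csn1s1 had 50.6, 8.32 and 3418 in fat, against 1802, 7.48 and 1255 in hypothalamus, and the milk protein Lalba 15.0, 5.93 and 1218 in fat, against 646, 21.0 and 542 in hypothalamus. Both were high on fat array 3 and hypothalamus arrays 1 and 3 and under the floor on the remaining arrays, so that neither gave a call (differences -1.19 ± 2.32 and -2.03 ± 1.85).

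**Figure D3:**
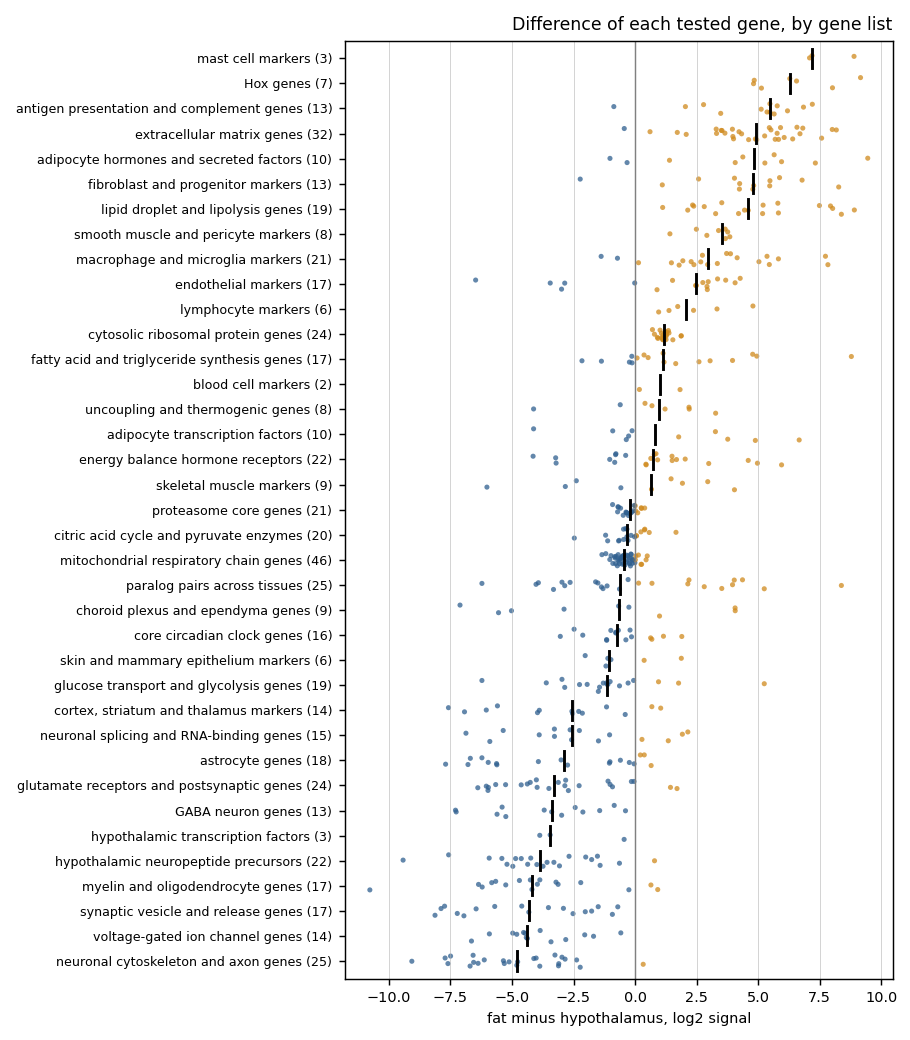
Fat minus hypothalamus difference in log2 signal of every tested gene in 37 gene lists, a point per gene (orange above 0, blue below 0) with a black bar at the list median and the number tested in brackets. Matrix and lipid droplet genes lie to the right and neuronal and myelin lists to the left, proteasome and respiratory chain genes lie in narrow bands near 0, and ribosomal protein genes lie in a narrow band wholly above 0. The Hox and mast cell genes shown passed the filter through fat alone.

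Most tested synaptic genes were lower in fat. Of 23 genes of synaptic vesicles and release on the array, 17 were tested, 15 were called lower in fat and 0 higher. Of all tested probe sets 23.6% were called lower. The median was -4.32 over those tested and -2.52 over all 23 with values held at the floor. Snap25, a protein of the vesicle fusion machinery, was 124-fold lower in fat (difference -6.95 ± 0.25, adjusted p = 8.41e-08). Syp, a vesicle membrane protein, had 12.03, 119 and 57.3 in fat, against 5507, 5302 and 9340.4 in hypothalamus, and Cplx1, which times fusion, 9.51, 98.8 and 63.3 in fat, against 7735, 9044 and 11091 in hypothalamus. The scaffold Bsn of the release site had 17.0, 51.0 and 27.2 in fat, against 1991, 2160.0 and 3719 in hypothalamus. Syt1, the main calcium sensor of release, was under the filter, with 5.71, 5.01 and 60.03 in fat, against 60.8, 18.6 and 35.5 in hypothalamus.

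Receptors and enzymes of both main transmitters were present in hypothalamus. Of 26 glutamate receptor and postsynaptic genes 24 were tested, 18 were called lower in fat and 2 higher. Slc17a6, the vesicular transporter of subcortical glutamate neurons, had 59.6, 111 and 77.2 in fat, against 5511, 5575 and 4144 in hypothalamus. The receptor genes Gria3 and Grm5 had 138, 158 and 426 and 91.4, 180.1 and 101 in fat, against 7054, 8343 and 8854 and 6285, 7585 and 8363 in hypothalamus. Higher in fat were the receptor subunit Grin3a, at 199, 228 and 174 in fat, against 75.1, 51.6 and 59.2 in hypothalamus, and the scaffold Dlg2, at 734, 2937 and 1400.2 in fat, against 533, 504 and 569 in hypothalamus. The Dlg2 call was lost after median centring and the Grin3a call with all 18 arrays in the fit. Of 17 GABA neuron genes 13 were tested, 11 were called lower in fat and 0 higher. Gad1, which makes GABA, had 44.3, 71.2 and 95.9 in fat, against 9247, 10291 and 11571 in hypothalamus, while the second enzyme, Gad2, had 62.6, 95.4 and 74.6 in fat, against 406, 397 and 228 in hypothalamus. The vesicular transporter Slc32a1 had 5.27, 3.54 and 2.01 in fat, against 528, 952 and 807 in hypothalamus, and was not tested, since its mean over the 6 arrays was under the filter. The receptor subunit Gabrb1 had 19.0, 14.7 and 45.7 in fat, against 3124, 3216 and 4894 in hypothalamus.

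Most tested genes that make neurons excitable and long were lower in fat. Of 23 voltage-gated channel genes 14 were tested and 13 called lower in fat, with a median of -4.40. Over all 23, with values held at the floor, the median was -2.20. Kcnc2, a potassium channel of fast-firing neurons, had 78.1, 247 and 198 in fat, against 10058, 9842 and 8514 in hypothalamus, and the sodium channel Scn1a 109, 322 and 195 in fat, against 4003, 5367 and 6946 in hypothalamus. Of 28 neuronal cytoskeleton and axon genes 25 were tested, 24 called lower in fat and 1 higher, with a median of -4.80. Over all 28, with values held at the floor, the median was -3.94. Map2 and Mapt, microtubule proteins of dendrites and axons, had 51.7, 94.2 and 81.0 and 277, 263 and 245 in fat, against 7429, 6044 and 7336 and 10288, 10545 and 11139 in hypothalamus. Uchl1, a ubiquitin hydrolase abundant in neurons, had 57.6, 103 and 32.2 in fat, against 10585, 9744 and 10817 in hypothalamus. The exception, Dpysl2, a regulator of axon growth, had 20603, 25782 and 20758 in fat, against 17624, 18206 and 17396 in hypothalamus, and its difference of 0.33 ± 0.12 turned to -0.18 after median centring. Its call was also lost without fat array 2 or any 1 of the hypothalamus arrays.

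Neuropeptide precursors, by which hypothalamic neurons are usually classified, were lower in fat. Of 31 on the array 22 were tested, 20 were called lower in fat and 0 higher, and 17 by at least 4-fold. The median was -3.86 over those tested and -2.12 over all 31 with values held at the floor. Above the floor on all 3 arrays were 7 of the 31 in fat and 23 in hypothalamus, so the filter favoured members bright in hypothalamus. Pmch, the precursor of melanin-concentrating hormone, which promotes feeding and is made in the lateral hypothalamus, had 9.43, 3.2 and 4.87 in fat, against 4391, 5111 and 2101 in hypothalamus, at least 52.7-fold lower in fat (difference -9.42 ± 0.50, adjusted p = 3.72e-07). Oxytocin and vasopressin, made by the magnocellular neurons, were clear but uneven. Oxt had 15.96, 5.84 and 1.94 in fat, against 359.9, 2070.0 and 1664 in hypothalamus, and Avp 57.0, 70.9 and 72.9 in fat, against 485, 1410.4 and 1028 in hypothalamus, both lowest on hypothalamus array 1. Sst, the inhibitor of growth hormone release, had 76.6, 73.6 and 55.3 in fat, against 1181, 2391 and 3367 in hypothalamus, and Penk, an opioid precursor, 149.9, 332 and 304 in fat, against 3103, 6825 and 6226 in hypothalamus. Those were lowest on array 1 as well. The granule proteins Chgb and Scg2, common to peptide neurons, were steadier, at 145, 108 and 119 and 16.9, 42.3 and 47.1 in fat, against 4938, 3675 and 5103 and 2569, 2017 and 1456 in hypothalamus.

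The arcuate feeding peptides were only partly readable. Npy, which stimulates feeding, had 194, 129 and 103 in fat, against 610.4, 871 and 1280.4 in hypothalamus, 6.42-fold lower in fat (adjusted p = 1.34e-04), and Cartpt, which restrains it, 104, 101 and 25.1 in fat, against 454, 1103 and 504 in hypothalamus. Pomc, the precursor of melanocortins, gave 86.5, 41.6 and 30.0 in fat, against 14.7, 6.85 and 5.75 in hypothalamus, and Hcrt, the orexin precursor, 40.1, 5.43 and 60.04 in fat, against 69.0, 48.0 and 51.7 in hypothalamus. Neither probe set passed the filter, so these arrays do not show the arcuate and orexin neurons through Pomc and Hcrt. The probe sets of Gnrh1 and Ghrh did not pass either. Of the releasing hormones that passed, Trh had 55.1, 72.0 and 49.8 in fat, against 201, 275 and 141 in hypothalamus, and Crh 121, 39.9 and 40.3 in fat, against 178, 212 and 125 in hypothalamus, with adjusted p of 0.0046 and 0.0297.

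Glial genes were also lower in fat. Of 19 myelin and oligodendrocyte genes 17 were tested, 14 were called lower in fat and 0 higher, all 14 by at least 4-fold. Mbp, a structural protein of myelin, had 320.4, 397 and 297 in fat, against 17269, 17528 and 16184 in hypothalamus, and Cldn11, the junction protein between myelin wraps, 198, 176 and 328 in fat, against 16329.9, 18853 and 15023 in hypothalamus. Enpp2, an enzyme that oligodendrocytes, choroid plexus and adipocytes all make, had 4795, 8945 and 4769 in fat, against 7875, 7716 and 5705 in hypothalamus and gave no call. All 18 astrocyte genes were tested, 13 were called lower in fat and 1 higher. Aqp4, the water channel of astrocyte endfeet, had 83.1, 193 and 53.9 in fat, against 11107, 11268 and 9296 in hypothalamus. The filament protein Gfap had 21.0, 16.3 and 55.5 in fat, against 2431, 3298 and 2611 in hypothalamus.

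Several genes often used to mark astrocytes were as bright in fat with the deposited scaling. After median centring, 15 of the 18 astrocyte genes were called lower in fat and 0 higher. Glul, which makes glutamine, had 17429.7, 24425 and 13858 in fat, against 15062, 17289 and 14576 in hypothalamus (95% interval of the difference -0.21 to 0.63). S100b, a calcium-binding protein, had 6971, 7504 and 8496 in fat, against 9135, 7416 and 7178 in hypothalamus (interval -0.37 to 0.28). The gap junction gene Gja1 had 19269, 14996 and 14708 in fat, against 18695, 19975 and 18610.4 in hypothalamus, and the glutamate transporter Slc1a3 9227, 16534 and 10928 in fat, against 8903, 8786 and 9853 in hypothalamus. Their intervals were -0.52 to 0.05 and -0.07 to 0.81. Apoe, a lipid carrier made by astrocytes, macrophages and adipocytes, was called higher, with 9739, 8434 and 6979 in fat, against 5155, 5775 and 4984 in hypothalamus, a call that was lost after median centring and with all 18 arrays in the fit.

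RNA-binding proteins that set neuronal splicing were mostly lower in fat. Of 18 on the array 15 were tested, 10 were called lower in fat and 2 higher. Celf4, a neuronal splicing regulator, and Rbfox3, the neuronal nuclear antigen NeuN, had 33.7, 7.99 and 83.9 and 56.2, 36.1 and 63.0 in fat, against 3354, 3317 and 3240.4 and 2148, 2613 and 4839 in hypothalamus. Ptbp1, which represses neuronal exons outside the nervous system, had 723, 426 and 593 in fat, against 153, 166 and 84.0 in hypothalamus, and Mbnl1 3950.0, 4152 and 3599 in fat, against 1275, 884 and 972 in hypothalamus. Those were the 2 called higher.

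Some families of related proteins, chosen with earlier results known, held a member higher in each tissue. Acsl1, which activates fatty acids in fat, had 20777, 26516 and 22609 in fat, against 1868, 2043 and 2172 in hypothalamus, and Acsl6, its brain counterpart, 188, 377 and 287 in fat, against 4054, 5632 and 3829 in hypothalamus. Their differences were 3.52 ± 0.14 and -4.02 ± 0.28. The fatty acid carrier of glia, Fabp7, went opposite to Fabp4, with 83.2, 176 and 65.6 in fat, against 1836, 1198 and 1536 in hypothalamus (differences -3.93 ± 0.38 and 8.37 ± 0.65). Of the stearoyl-CoA desaturases, Scd had 3698, 5798 and 25187 in fat, against 757, 368 and 521 in hypothalamus, and Scd2 6067, 4339 and 7469 in fat, against 16104, 14643 and 14350.3 in hypothalamus. Scd on fat array 3 was several-fold above the other two. The glycerol phosphate dehydrogenases differed by 2.81 ± 0.41 for cytosolic Gpd1 and -1.51 ± 0.28 for mitochondrial Gpd2, and the splicing repressors by 2.14 ± 0.35 for Ptbp1 and -2.64 ± 0.28 for Ptbp2. The carnitine acyltransferases differed by 2.19 ± 0.36 for Cpt1b and -1.30 ± 0.43 for the neuronal Cpt1c, whose call was lost without fat array 1 or hypothalamus array 2 or 3. The calls of Gpd2 and Aldoa were lost with all 18 arrays in the fit. Other relatives went the same way and by unequal amounts. Aldoa and Aldoc, aldolases of glycolysis, differed by -0.63 ± 0.14 and -6.22 ± 0.22, and the enolases Eno1 and Eno2 by -1.14 ± 0.19 and -2.97 ± 0.22.

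**Figure D4:**
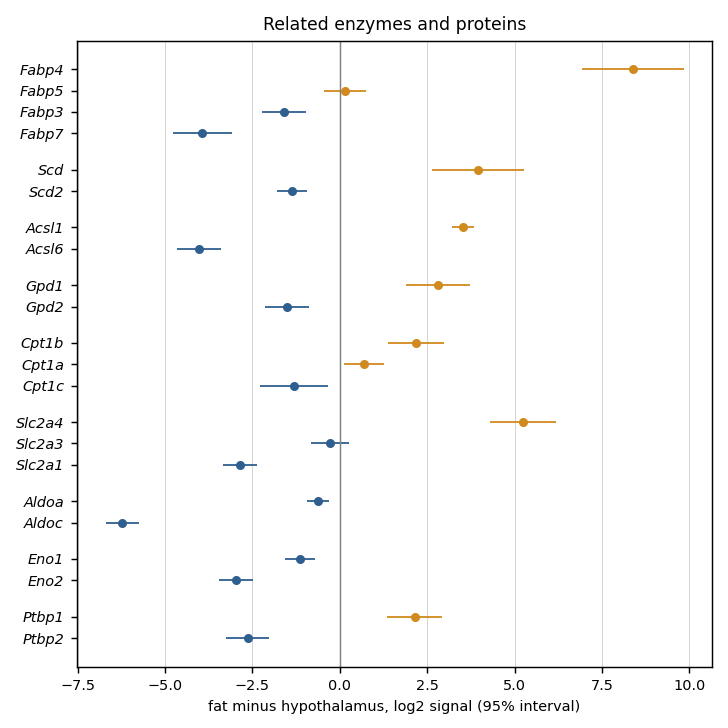
Fat minus hypothalamus difference in log2 signal with its 95% interval (limma, 3 arrays per tissue) for 22 genes in 9 families of related proteins. Orange points lie above 0 and blue points below 0. The families were chosen with earlier results known, and 7 of the 9 hold members on both sides. The aldolases and enolases lie on the hypothalamus side only.

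Glucose handling was weighted to hypothalamus. Of 20 genes of glucose transport and glycolysis 19 were tested, 14 were called lower in fat and 3 higher, with a median of -1.16. Of all tested probe sets 23.6% were called lower and 30.8% higher. Pfkm, a subunit of the rate-setting phosphofructokinase, had 380.1, 178 and 213 in fat, against 2993, 2818 and 3095 in hypothalamus, and Hk1, which traps glucose in the cell, 283, 284 and 367 in fat, against 711, 817 and 1022 in hypothalamus. Slc2a4, the insulin-responsive transporter of fat and muscle, was higher in fat, with 869, 696 and 1543 in fat, against 33.4, 30.5 and 16.9 in hypothalamus. So was Pdk4, a brake on glucose oxidation, at 440.0, 1489 and 696 in fat, against 173, 513 and 131 in hypothalamus, with overlapping arrays, and the Pdk4 call was lost after median centring and without fat array 2 or hypothalamus array 1 or 3. Ldha, which makes lactate, had 2364, 2583 and 3864 in fat, against 1571, 1364 and 1529 in hypothalamus and lost its call after median centring and with all 18 arrays in the fit.

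Mitochondrial genes differed little with the deposited scaling. All 46 respiratory chain genes were tested, 15 were called lower in fat and 1 higher, and 0 by at least 4-fold. Of all tested probe sets 23.6% were called lower and 30.8% higher. For 26 of the 46 the 95% interval lay within 2-fold. The median of the 46 was -0.44, and -0.95 after median centring. After median centring 38 were called lower and 0 higher. Ndufa8, a subunit of complex I, had the largest difference, with 607, 551 and 545 in fat, against 1862, 1744 and 927 in hypothalamus. Atp5f1b, the catalytic subunit of ATP synthase, had 7318, 7032 and 7650.2 in fat, against 8126, 7748 and 9261 in hypothalamus (interval -0.48 to 0.10). All 20 citric acid cycle and pyruvate enzymes were tested, 6 were called lower in fat and 2 higher, near the 23.6% of all tested probe sets called lower. After median centring 13 were called lower and 1 higher. Idh3a, of the mitochondrial NAD-dependent isocitrate dehydrogenase, had 402, 469 and 444 in fat, against 2106, 3186 and 2119 in hypothalamus, and the cytosolic NADP-dependent Idh1 11987, 14006 and 9514 in fat, against 4337, 3846 and 3044 in hypothalamus. These isocitrate dehydrogenases thus stood in opposite order.

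Cytosolic ribosomal protein genes were higher in fat by small amounts. Of 25 on the array 24 were tested, 23 were called higher and 0 lower, 0 by at least 4-fold, with a median of 1.18, and 0.67 after median centring, where 19 were called. Rps6 had 27988, 29805 and 24974 in fat, against 11728, 12096 and 10679.8 in hypothalamus, and Rpl24 15645, 15323 and 15114 in fat, against 6963, 6339 and 5799 in hypothalamus. Proteasome core genes were close to even. All 21 were tested, 6 were called lower in fat and 0 higher, near the 23.6% of all tested probe sets called lower. For 16 the interval lay within 2-fold, and 13 were called lower after median centring. Psma4, a subunit of the catalytic barrel, had 2710.4, 1850.2 and 2237 in fat, against 2260.0, 2116 and 2229 in hypothalamus.

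Of 33 receptors for hormones of energy balance on the array 22 were tested, 9 were called higher in fat and 5 lower, which is near the 30.8% and 23.6% of all tested probe sets and is no result about the receptors. Ghr, the growth hormone receptor, had 3170.2, 3040.3 and 4576 in fat, against 54.5, 78.0 and 44.4 in hypothalamus, and Adrb3, the adrenergic receptor through which noradrenaline starts lipolysis in rodents, 1152, 1648 and 395 in fat, against 63.3, 26.6 and 31.8 in hypothalamus. The neuropeptide Y receptor Npy1r had 2111, 2565 and 2536 in fat, against 652, 641 and 481 in hypothalamus, opposite in direction to Npy itself. Insr, the insulin receptor, was 194, 330.1 and 255 in fat, against 106, 85.0 and 79.7 in hypothalamus. Cnr1, the endocannabinoid receptor, had 106, 127 and 118 in fat, against 2236, 1890.0 and 2074 in hypothalamus, and Calcr, the calcitonin receptor that also takes part in amylin binding, 140.4, 64.9 and 16.8 in fat, against 447, 885 and 318 in hypothalamus. The receptors of leptin and of melanocortin were dim. Lepr had 89.1, 235 and 120.2 in fat, against 65.7, 89.0 and 64.4 in hypothalamus, and Mc4r 59.96, 78.9 and 53.7 in fat, against 147, 191 and 50.9 in hypothalamus, and neither was called (differences 0.91 ± 0.46 and -0.83 ± 0.55). Glp1r and Ghsr, which bind gut hormones, were under the filter.

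Core clock genes leaned to hypothalamus, with 16 of 17 tested, 8 called lower in fat and 1 higher. Of all tested probe sets 23.6% were called lower and 30.8% higher. After median centring 10 of the clock genes were called lower and 1 higher. Bhlhe41, a repressor of the clock loop, had 287, 392 and 506 in fat, against 3286, 3359.5 and 2861 in hypothalamus, and the output factor Hlf 1498, 2076 and 2275 in fat, against 9709, 11353 and 11107 in hypothalamus. Per3 was the gene called higher, at 261, 193 and 310.2 in fat, against 51.0, 82.1 and 72.7 in hypothalamus. The hour at which tissue was taken is not given in the sources used here.

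Genes at like level were defined by an interval and not by a missed call. The 95% interval of the difference lay within 2-fold either way for 3537 of 18625 probe sets (19.0%), of which 280 were also called, and 5239 were neither called nor within that interval. The 6 brightest named ones were Mrfap1, Rac1, Arpc4, Cox7b, Vdac1 and Ywhae. Ywhae, an adaptor that binds phosphorylated proteins, had 21560.5, 29758 and 23702 in fat, against 19900.4, 21173 and 20668 in hypothalamus, and Rac1, a small GTPase of the cytoskeleton, 24967, 32306 and 26925 in fat, against 17429, 18937 and 19793 in hypothalamus. The differences of the 6 ran between 0.27 and 0.58. After quantile normalization the sign turned in all 6, and after median centring in all but Rac1, so none of them has a settled direction.

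The operated rats share no array with the Pair-Fed comparison, so the tissue difference could be read again in them. RYGB-Fail fat array 3 stood apart, with a median signal of 288 and correlations of 0.659 and 0.703 with the other RYGB-Fail fat arrays, which correlated at 0.855 with each other. RYGB-Fail values are therefore given with and without it, a choice made after seeing the data. Of the 1726 probe sets at least 4-fold higher in Pair-Fed fat, 1594 (92.4%) were called higher in fat in RYGB-Success, where 25.7% of all tested probe sets were. In RYGB-Fail, 1406 (81.5%) were, where 11.5% of all tested probe sets were. Of the 1792 at least 4-fold lower in Pair-Fed fat, 1675 (93.5%) were called lower in RYGB-Success and 1554 (86.7%) in RYGB-Fail, where 19.1% and 13.2% of all were. Without fat array 3 the RYGB-Fail counts were 1468 (85.1%) higher and 1687 (94.1%) lower, where 14.3% and 18.1% of all were. With all arrays none was called the opposite way in either group, and without fat array 3 this was so of 1, the muscle and interneuron gene Pvalb, at 2.57 in RYGB-Fail rats, against -6.02 in Pair-Fed rats. Called in both operated groups and in the same direction were 1326 (76.8%) of those higher in fat and 1493 (83.3%) of those lower.

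Single genes and lists can be read the same way. Adipoq differed by 7.75 ± 0.50 in RYGB-Success and 7.20 ± 0.59 in RYGB-Fail (6.62 ± 0.49 without fat array 3), against 7.32 ± 0.42 in Pair-Fed rats. Pmch differed by -7.32 ± 0.32 in RYGB-Success and -8.49 ± 0.83 in RYGB-Fail (-8.91 ± 0.89 without fat array 3), against -9.42 ± 0.50 in Pair-Fed rats. Ribosomal protein genes were called higher in 22 of 24 in RYGB-Success and in 12 of 24 in RYGB-Fail (14 without fat array 3), against 23 of 24 in Pair-Fed rats. Respiratory chain genes were called lower in 29 of 46 in RYGB-Success and in 3 of 46 in RYGB-Fail (2 without fat array 3), against 15 of 46 in Pair-Fed rats. Whether these counts differ between groups was not tested. Tested directly, as the interaction of tissue and group over all 18 arrays in limma, 0 probe sets passed for RYGB-Success against Pair-Fed and 0 for RYGB-Fail against Pair-Fed. At an unadjusted p under 0.05 the counts were 1481 and 520 of 18625. Without RYGB-Fail fat array 3, limma called 19 for RYGB-Fail against Pair-Fed, and 1200 at an unadjusted p under 0.05. The fit over all 18 arrays takes its spread from every group, that array included. The RYGB-Success interaction was not read without it, so its 0 calls do not show that the tissue difference was the same.

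Of these 19 probe sets 17 carried 1 gene symbol and 16 had a higher fat minus hypothalamus difference in RYGB-Fail than in Pair-Fed rats. The genes given here were chosen after their values were seen. The fast-muscle troponin gene Tnnc2 differed by 6.16 in RYGB-Fail rats, against -2.39 in Pair-Fed rats (adjusted p of the interaction in limma 4.71e-04). Ryr1, the calcium release channel of muscle, differed by 6.08 in RYGB-Fail rats, against -0.996 in Pair-Fed rats, and the tropomyosin gene Tpm2 by 5.24, against -2.39 in Pair-Fed rats. Pvalb, a muscle calcium buffer, differed by 2.57 in RYGB-Fail rats, against -6.02 in Pair-Fed rats. The part of muscle tissue in the fat samples was not tested.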

How the data were processed

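Total RNA from 3 fat and 3 hypothalamus samples of Pair-Fed rats was purified on Qiagen RNeasy columns. Per the labels' protocols, Nugen WT Ovation reagents amplified it and biotin served as the label of the 1-colour arrays. Each deposited value is a linear fluorescence intensity that the authors computed by MAS5 with GCOS, per the submitters' processing notes, and their trimmed mean is equal on all arrays. No detection calls were used. Signals were taken as log2 with no pseudocount and no further normalization. Of 31042 probe sets the 60% with the highest mean over both tissues were tested, which kept 18625. This filter can remove a gene that is bright in 1 tissue and very dim in the other. The model was limma's lmFit and eBayes with a mean-variance trend (limma 3.58.1, R 4.3.3) over the 6 arrays with no block, and adjusted p-values are limma's with Benjamini-Hochberg adjustment. They measure only the spread between these samples, and 3 arrays per tissue limit the precision. Of 31099 probe sets 20826 had 1 gene symbol, 436 several, 9780 none and 57 were controls. Probe sets with 1 symbol were used to name genes, 20758 of them matched in RefSeq (GRCr8). Promoter sequences came from RefSeq.

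The members and the gene lists were chosen with earlier results of these data known. The genes named were the 12 largest in each direction with values held at the floor and up to 6 in each direction per list, with exceptions and well-known members given in addition after their values were seen. On simulated data for this comparison, with 200 of 18625 probe sets changed, the fit recovered 16.4% of changes of 1 log2 unit, 59.7% of 2 and 87.9% of 4. The data had 10129 calls, and the Benjamini-Hochberg threshold depends on how many probe sets differ. The simulated shares therefore do not give the recovery in the data. Alternatives were other filters, pseudocounts, scalings, fits and leaving out each array, and RYGB-Fail fat array 3 was left out as an alternative chosen after seeing the data.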

Additional observations from a re-analysis of the deposited data

Results flagged for a closer look

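In RYGB-Fail rats the tissue difference of 2 muscle genes ran opposite to that in Pair-Fed rats, with arrays that did not overlap in either group. The RYGB-Fail difference minus the Pair-Fed difference was 5.80 log2 units for Pygm, the muscle glycogen phosphorylase, and 6.62 for Tnnc2, a fast-muscle troponin. In RYGB-Fail rats Pygm had 1351, 12444 and 217 in fat, against 209.8, 207 and 177 in hypothalamus. In Pair-Fed rats it had 14.02, 55.2 and 59.6 in fat, against 242, 269 and 256 in hypothalamus. In RYGB-Fail rats Tnnc2 had 12380.2, 29095 and 346 in fat, against 299.9, 213 and 292 in hypothalamus. In Pair-Fed rats it had 15.7, 82.1 and 88.1 in fat, against 146, 188 and 593 in hypothalamus. The high RYGB-Fail values stood mainly on fat arrays 1 and 2. The difference between groups, tested as an interaction in limma, did not pass, with an adjusted p of 0.9996 for both genes. RYGB-Fail fat array 3 stood apart from the others, and without it the interaction was 7.21 for Pygm (adjusted p = 0.0614) and 8.55 for Tnnc2 (adjusted p = 4.71e-04), so that Tnnc2 passed and Pygm did not. The Tnnc2 call in Pair-Fed rats was lost without hypothalamus array 3.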

How the results depend on the processing

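Called differences numbered 10129 and ran from 8805 to 9710 when 1 array was left out, with 4989 to 5469 higher and 3801 to 4241 lower in fat. Differences of at least 4-fold ran from 1683 to 1829 higher and 1753 to 1821 lower, and intervals within 2-fold from 2601 to 3058. Calls higher in fat fell to 3735 with the filter at the upper 40%, where fewer probe sets were tested, and to 3592 with median centring, which left 1142 at least 4-fold higher. Intervals within 2-fold numbered 5811 with a pseudocount of 50 and 2246 with all 18 arrays in the fit. With the filter at the upper 40% the median turned to -0.19 for adipocyte transcription factors and -3.30 for skeletal muscle markers, where fewer genes were tested. Quantile normalization turned Arpc4 to -0.42, Cox7b to -0.24, Dpysl2 to -0.38, Mrfap1 to -0.29, Rac1 to -0.20, Vdac1 to -0.44 and Ywhae to -0.46. Median centring turned Arpc4 to -0.21, Cox7b to -0.018, Dpysl2 to -0.18, Fabp5 to -0.37, Fasn to -0.15, Mrfap1 to -0.0085, Vdac1 to -0.21 and Ywhae to -0.24. Fabp5 ran from -0.082 to 0.37 when 1 array was left out. Except where fewer genes were tested, the cause was not tested. Of 261 named genes tested, 253 were called and 209 kept call and direction under every alternative run. Same-numbered fat and hypothalamus arrays correlated at 0.11, 0.04 and 0.16 in their deviations, and differently numbered ones at -0.17 to 0.05. The numbers were not taken as pairs because the sources do not say that equal numbers mark 1 rat. The fit with the replicate number as a block called 10279. Leaving out RYGB-Fail fat array 3, chosen after seeing the data, moved the interaction calls for RYGB-Fail to 19, against 0 with all arrays.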

Other observations

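Milk protein genes, which are known from the lactating mammary gland, differed strongly between arrays of 1 tissue and group. Csn1s1, a casein, had 77.8, 62091 and 48581 in RYGB-Success fat, 5.62, 1419 and 907 in RYGB-Fail fat and 50.6, 8.32 and 3418 in Pair-Fed fat. In hypothalamus it had 2.15, 841 and 43.4 in RYGB-Success rats, 2074, 13.7 and 24.8 in RYGB-Fail rats and 1802, 7.48 and 1255 in Pair-Fed rats. Lalba, the milk protein alpha-lactalbumin, had 90.1, 60276 and 29079.5 in RYGB-Success fat. Csn2, a second casein, stayed between 18.8 and 50.8 on the 6 Pair-Fed arrays, and had 1093 and 885 on RYGB-Success fat arrays 2 and 3. The source of these signals was not tested.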
